A study of Mus musculus with 18 samples.

Results

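The 32 genes described here encode complement and coagulation proteins that hepatocytes make and release into plasma, 15 of complement and 17 of coagulation, out of 18946 genes listed for the liver RNA. They were chosen by name, and each was found under its gene symbol in all 18 libraries. Liver RNA was sequenced from 10 Old mice aged 19.76 months and 8 Young mice aged 6.18 months, per the labels, although the growth protocol gives a somewhat higher age for the Old mice. All animals were male C57BL/6J, an inbred strain with no transgene or allele named in the labels, and each library came from a different mouse. Every liver was frozen right after a hyperinsulinemic-euglycemic clamp (an insulin infusion with enough glucose given to keep blood glucose steady), so no liver without insulin infusion was compared. RNA came from AllPrep kits for 5 Old and 3 Young livers and from RNeasy kits for 5 Old and 5 Young livers, and ribosomal RNA was depleted.

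Complement is a cascade of plasma proteases that tags and perforates microbes: the lectin, classical and alternative pathways cleave C3, and the terminal proteins C5 to C9 then assemble a pore in the target membrane. Coagulation is a protease cascade that ends in thrombin and fibrin, held in check by anticoagulant proteases and serpins and reversed by plasmin. The liver is the main source of most proteins of both cascades.

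Levels are given as scaled TPM: the deposited TPM (abundance per gene length, with the same total in each library) divided by 1 factor per library so that libraries are comparable. Age differences are log2 fold changes of Old over Young on log2(scaled TPM + 0.5), from limma with age and kit as terms, and a gene is called at a Benjamini-Hochberg adjusted p under 0.05 over 13895 genes. Recovered reads came to between 85790735 and 127487820 per library, and the member with the fewest reads in any library, F11, still had 2874. Of the hepatocyte markers, 11 of 12 were listed and none was at 0 in any liver. Their summed level was 117540 to 168220 scaled TPM in Old and 109920 to 150900 in Young livers. By gene, 2 of these 11 had log2 fold changes above 0 and 9 below, with a median of -0.05. Of the 11, 0 were called, against 4.91% of all genes. Without Old replicate 14, 3 were above 0 and 8 below, with a median of -0.11. In that fit 0 were called, against 7.02% of all genes. Because whole liver was sequenced, fewer cells of a type and less RNA per cell cannot be told apart. Old replicate 14 stood apart from the other Old livers: it was the lowest of the 10 for 29.5% of all genes tested and the highest for 22.1%. Results that rest on Old replicate 14 are therefore given with and without it. Among the 8 Young livers, replicate 1 was the lowest for 23.5% of all genes tested and the highest for 21.5%. Without Young replicate 1 the log2 fold changes of C4b, Cfb and F5 turned below 0 (-0.021, -0.011 and -0.013), none of them called.

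Between the ages, 1 of the 32 members was called with all livers, against 4.91% of all genes tested. An unadjusted limma p under 0.05 was found for 3 of the 32, against 23.4% of all genes. The text leads with 1 gene of each cascade, C6 and Serpind1. C6 RNA was lower in every Old liver than in every Young liver, but its adjusted p missed the threshold with all livers. It passed without Old replicate 14, but C6 was not called in 24 of 28 alternative fits. Serpind1, which encodes heparin cofactor II, was higher in Old livers and passed narrowly, but was not called in 21 of 28 alternative fits. The upstream windows of these genes and of C8b, another terminal complement gene, are shown because the results turn on them. Each runs from 250 bases before to 50 bases after the start of the gene as annotated by RefSeq on GRCm38.p6, all on the plus strand. C6 lies at chr15:4726960-4727259, C8b at chr4:104766067-104766366 and Serpind1 at chr16:17331121-17331420. Capitals mark matches, on either strand, to the letters TTGCNNAA of C/EBP factors, GTTAAT of HNF1 and CAAAGTNCA of HNF4, factors known for driving hepatocyte genes.
C6: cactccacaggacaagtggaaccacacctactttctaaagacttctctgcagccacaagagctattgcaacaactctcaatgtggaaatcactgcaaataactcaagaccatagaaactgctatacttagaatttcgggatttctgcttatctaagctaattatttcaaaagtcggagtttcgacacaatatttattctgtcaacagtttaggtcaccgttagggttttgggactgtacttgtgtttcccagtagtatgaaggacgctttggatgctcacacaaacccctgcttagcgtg
C8b: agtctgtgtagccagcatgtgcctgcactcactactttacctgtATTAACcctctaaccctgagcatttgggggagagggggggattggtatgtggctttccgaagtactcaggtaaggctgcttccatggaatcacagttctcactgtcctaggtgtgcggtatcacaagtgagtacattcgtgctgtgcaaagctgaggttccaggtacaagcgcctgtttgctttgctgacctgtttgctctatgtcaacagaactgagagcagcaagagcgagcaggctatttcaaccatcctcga
Serpind1: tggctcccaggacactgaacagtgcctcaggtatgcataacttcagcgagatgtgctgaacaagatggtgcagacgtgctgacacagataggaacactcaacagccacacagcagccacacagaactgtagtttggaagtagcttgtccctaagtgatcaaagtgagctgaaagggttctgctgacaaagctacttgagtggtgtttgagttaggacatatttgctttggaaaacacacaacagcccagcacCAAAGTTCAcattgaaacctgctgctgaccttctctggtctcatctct

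The C6 window held none of these letters, the C8b window held an HNF1 match on the minus strand, and the Serpind1 window held an HNF4 match that begins just after the annotated start. RefSeq windows were matched for 24 of the 32 genes, as 25 windows. The C/EBP letters were in 6 of these 25 and in 10.8% of all 32851 windows of that length. The HNF1 letters were in 6 of the 25 and in 7.1% of all, and the HNF4 letters in 2 of the 25 and in 1.41% of all. Capitals show letters only and do not mark bound sites. Of 12 liver transcription factors examined, 2 were called lower and 0 higher with all livers, against 2.47% and 2.44% of all genes. Hnf4a, Cebpa and Nr1h4 were the most abundant, and none of these 3 was called. Hnf4a averaged 375 ± 53.6 scaled TPM in Old and 410 ± 42.6 in Young livers (SD, n = 10 and 8). Cebpa averaged 258 ± 43.9 in Old and 260 ± 37.3 in Young livers, and Nr1h4 143 ± 30.9 in Old and 139 ± 7.37 in Young livers. Cebpb and Cebpd, C/EBP factors induced by stress and inflammation, were the factors that fell: Cebpb averaged 56.4 ± 16.3 scaled TPM in Old and 102 ± 12.4 in Young livers (log2 fold change -0.90, limma adjusted p = 0.00375), and Cebpd 2.99 ± 0.56 in Old and 5.46 ± 1.5 in Young livers (log2 fold change -0.76, limma adjusted p = 0.00498). Without Old replicate 14, Foxa2, a forkhead factor of the liver, was also called higher in Old livers (log2 fold change 0.43, limma adjusted p = 0.0415).

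**Figure D1:**
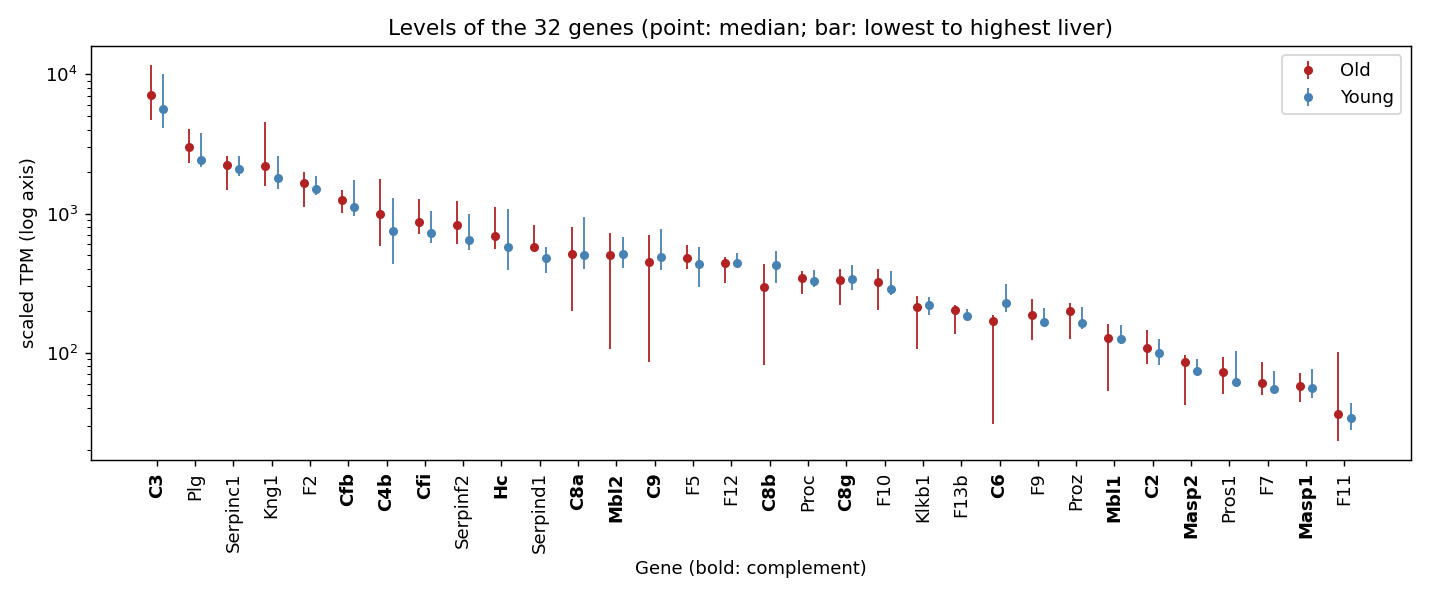
Level of each of the 32 genes in Old (left point of each pair, n = 10) and Young livers (right point, n = 8), in scaled TPM on a log axis, with points at the median, bars from the lowest to the highest liver and complement genes in bold. C3 was the most and F11 the least abundant, and for most genes the bars of both ages overlap.

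The members spanned a wide range of levels. C3, the protein on which all complement pathways converge, was the most abundant at 7216 ± 2044 scaled TPM in Old and 6231 ± 1949 in Young livers (SD, n = 10 and 8). Among coagulation genes Plg, the precursor of the clot-dissolving protease plasmin, led at 2981 ± 570 scaled TPM in Old and 2635 ± 557 in Young livers. F11, the zymogen factor XI, was the lowest of the 32 at 42.5 ± 21.1 in Old and 34.7 ± 5.65 in Young livers. Together the complement members made up 1.37% ± 0.28 of the deposited TPM in Old and 1.24% ± 0.255 in Young livers, and the coagulation members 1.33% ± 0.143 in Old and 1.16% ± 0.0785 in Young livers. Without Old replicate 14 the Old shares were 1.41% ± 0.273 for complement and 1.32% ± 0.142 for coagulation. Such sums weigh the most abundant genes most, such as C3 and Plg, and do not stand for every member. By kit, the complement members made up 1.53% ± 0.276 in Old and 1.31% ± 0.389 in Young AllPrep livers, and 1.21% ± 0.195 in Old and 1.19% ± 0.177 in Young RNeasy livers, so that the means of the ages lay close together in RNeasy livers. In AllPrep livers the coagulation members made up 1.40% ± 0.114 in Old and 1.22% ± 0.113 in Young, and in RNeasy livers 1.26% ± 0.143 in Old and 1.13% ± 0.0243 in Young. These shares are descriptions and were not tested. They use the deposited TPM, before division by the factor per library. That factor was 0.912 to 1.08 in Old and 0.876 to 0.924 in Young AllPrep livers. In RNeasy livers it was 0.979 to 1.08 in Old and 1.003 to 1.075 in Young. Its part in the differences between shares was not tested.

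Of the 15 complement genes, 0 were called in either direction with all livers, while 4.91% of all genes tested were called. An unadjusted p under 0.05 was found for 2 of the 15, against 23.4% of all genes. Without Old replicate 14, C6 alone was called, lower in Old livers, against 7.02% of all genes. With all livers 6 of the 15 log2 fold changes were above 0 and the median was -0.08, and without Old replicate 14 these were 8 of 15 and 0.02. The median over all genes was 0.00 and 0.01 in the same fits, with 50.9% and 52.5% of genes above 0. Limma-voom on the recovered reads called 0 complement genes and 4.7% of all genes. Each kit alone called 0 members of either cascade, against 1.13% of all genes in AllPrep livers, 0.0864% in RNeasy livers and 0.446% in RNeasy livers without Old replicate 14.

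The lectin pathway starts with mannose-binding lectins that recognise microbial sugars, and the proteases MASP-1 and MASP-2 that they carry. Mbl1 ran from 53.6 through a median of 128 to 160 scaled TPM in Old livers and from 115 through 126 to 160 in Young livers. Mbl2 ran from 106 through 504 to 727 in Old and from 405 through 514 to 676 in Young livers. For both, the Old minimum was Old replicate 14 and the other 9 Old livers lay close to the Young range. The log2 fold change of Mbl2 was -0.28 with a 95% interval of -0.79 to 0.23, and -0.03 (-0.22 to 0.16) without Old replicate 14. Masp1 averaged 57.5 ± 9.20 in Old and 59.4 ± 11.2 scaled TPM in Young livers, and Masp2 79.3 ± 15.7 in Old and 78.0 ± 8.22 in Young livers. None of these 4 was called in either fit.

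The convertase genes C2, C3, C4b and Cfb encode the parts of the enzymes that cleave C3 and C5. C3 ran from 4728 through 7117 to 11698 scaled TPM in Old and from 4131 through 5673 to 10047 in Young livers, so both groups covered nearly the same span. The highest livers were Old replicate 8 and Young replicate 10, and the lowest Young liver was replicate 1. C4b ran from 586 through 988 to 1755 in Old and from 435 through 753 to 1302 in Young livers, with the same livers at the top of both groups. Its log2 fold change was 0.19 with an interval of -0.25 to 0.62, but 0.51 in AllPrep and -0.06 in RNeasy livers, neither called, and the interaction of age with kit was not called either (limma adjusted p = 0.975). C4b has a near-identical copy, C4a, listed at 7.06 ± 4.01 scaled TPM in Old and 4.75 ± 1.91 in Young livers, so the split of reads between them is uncertain. Cfb, factor B of the alternative pathway, averaged 1224 ± 155 in Old and 1191 ± 258 in Young livers. C2 averaged 107 ± 17.7 in Old and 100.4 ± 12.8 in Young livers.

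Cfi encodes factor I, the protease that cuts C3b and C4b and so switches convertases off. It ran from 715 through 868 to 1267 scaled TPM in Old and from 611 through 727 to 1034 in Young livers. In 9 of 10 Old livers it lay above the Young median, yet the groups overlapped and it was not called, with a log2 fold change of 0.18 ± 0.09 (SE) and a limma adjusted p of 0.225.

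In the terminal pathway, C6 separated the ages. C6, which binds C5b to begin the pore, ran from 31.1 through 170 to 187 scaled TPM in Old livers and from 198 through 230 to 312 in Young livers. All 10 Old livers were below all 8 Young livers, a pattern shown by 0.202% of all genes tested in this direction. No other member separated the ages, and 0.216% of all genes did so in the other direction. In AllPrep livers C6 lay between 98.1 and 187 in Old and between 263 and 312 in Young. In RNeasy livers it lay between 31.1 and 179 in Old and between 198 and 248 in Young. That the ages did not overlap within either kit follows from the separation over all livers and is not a further check. The mean was 144 ± 49.9 in Old and 240 ± 43.6 in Young livers. The log2 fold change was -0.90 ± 0.27 (SE), with an interval of -1.46 to -0.34 and a limma adjusted p of 0.0598. Without Old replicate 14, the liver with the lowest C6, it was -0.65 ± 0.14 with an adjusted p of 0.0127. In RNeasy livers alone it was -0.83, and -0.36 without Old replicate 14 (limma adjusted p = 0.586 and 0.145); in AllPrep livers alone it was -1.01 (adjusted p = 0.0720).

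**Figure D2:**
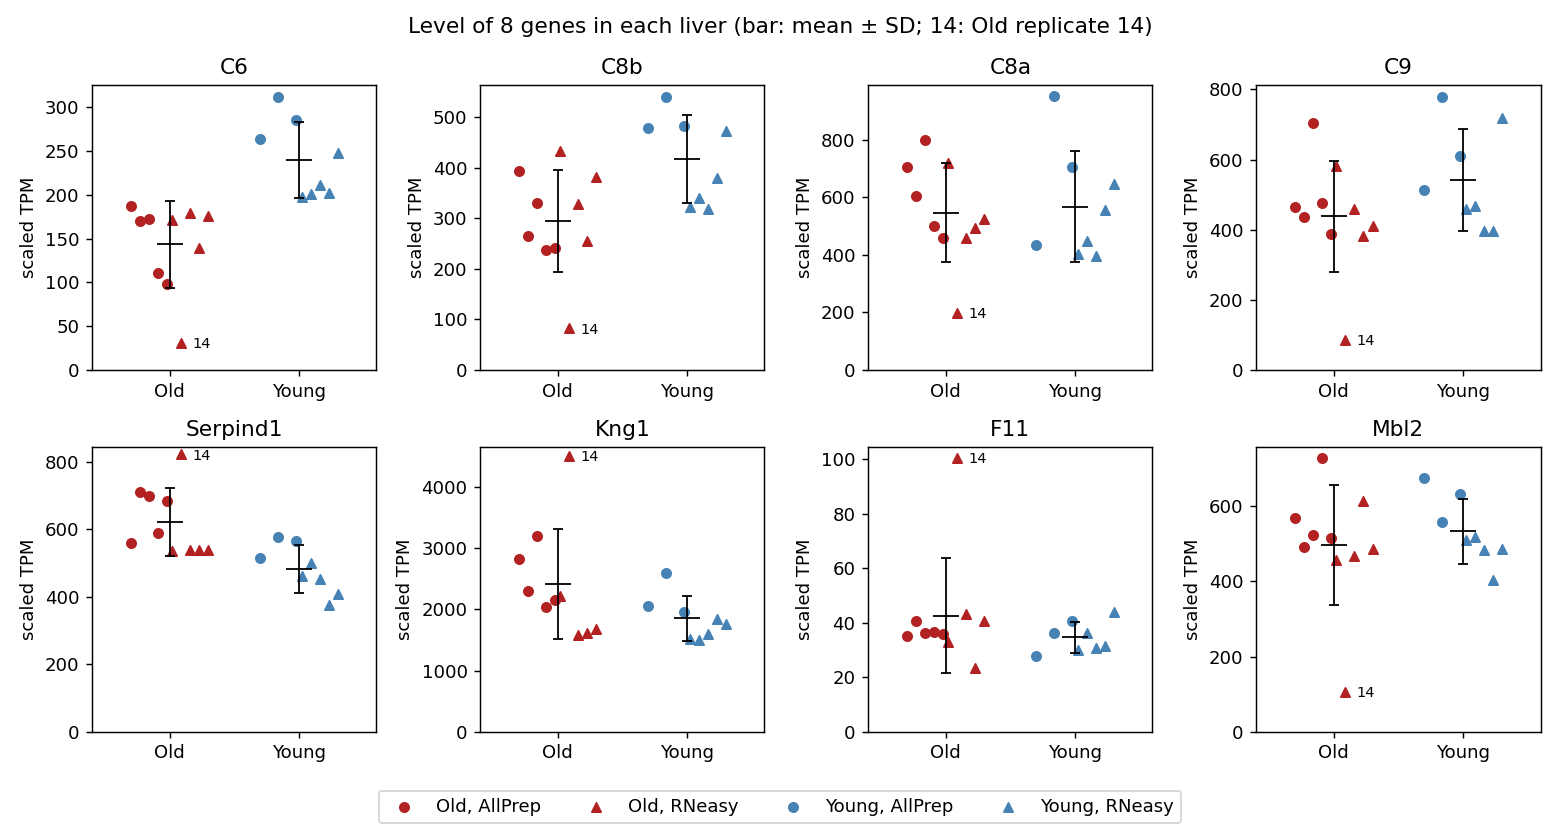
Scaled TPM of 8 genes in each liver, Old (red) left of Young (blue), with circles for AllPrep and triangles for RNeasy livers, bars for mean ± SD and Old replicate 14 marked. C6 is the gene whose Old livers all lie below its Young livers, while in C8b, C8a, C9 and Mbl2 the marked liver lies far below the other Old livers.

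C8a, C8b and C8g encode the chains of C8, and C9 is the subunit that polymerises into the pore. C8b ran from 82.3 through 297 to 433 scaled TPM in Old and from 318 through 426 to 541 in Young livers. It lay below the lowest Young liver in 5 of 10 Old livers and above the Young median in 1. Its log2 fold change was -0.62 ± 0.24 (SE) with a limma adjusted p of 0.132, and -0.41 ± 0.15 with 0.102 without Old replicate 14, so it was not called. The estimate was -0.80 in AllPrep livers and -0.49 in RNeasy livers, and -0.09 in RNeasy livers without Old replicate 14. C9 ran from 85.8 through 448 to 704 in Old and from 395 through 490 to 778 in Young livers, with a log2 fold change of -0.47 (-1.05 to 0.11), and -0.21 (-0.51 to 0.10) without Old replicate 14. C8a ran from 198 through 514 to 800 in Old and from 397 through 502 to 952 in Young livers, with a log2 fold change of -0.13 with all livers and 0.03 without Old replicate 14. C8g averaged 320 ± 58.5 in Old and 344 ± 40.5 in Young livers. Hc, the gene of C5, averaged 726 ± 170 in Old and 649.6 ± 219 in Young livers, with 9 of 10 Old livers above the Young median and a log2 fold change of 0.17 (-0.19 to 0.52).

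**Figure D3:**
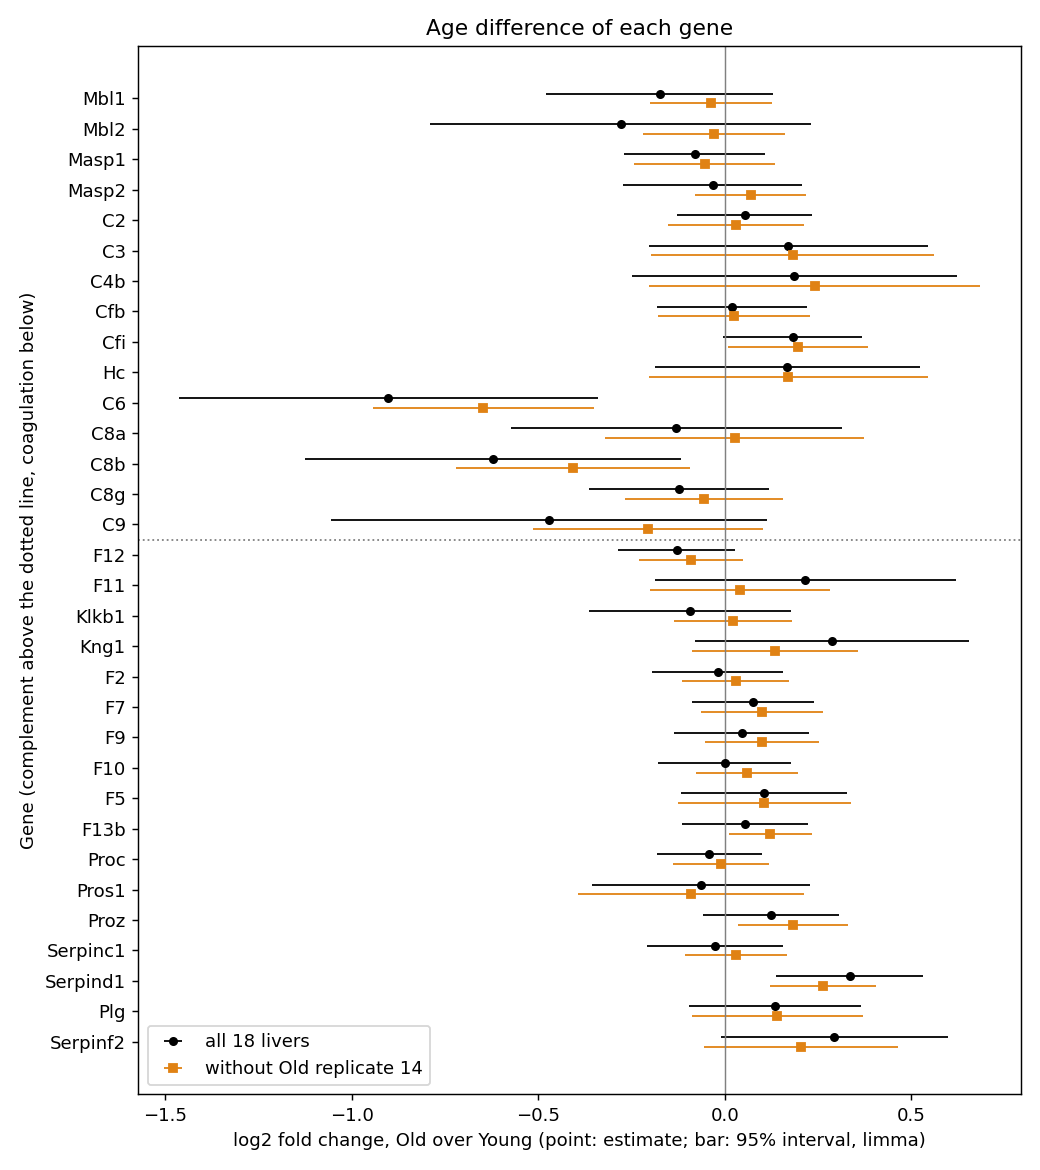
Log2 fold change of Old over Young for each gene, complement above and coagulation below the dotted line, with points for limma estimates and bars for 95% intervals, black for all 18 livers and orange without Old replicate 14. C6, C8b and Serpind1 have unadjusted intervals that keep clear of 0 in both fits, and leaving out Old replicate 14 moves C6, C8b, C9 and Mbl2 towards 0.

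Of the 17 coagulation genes, Serpind1 was called higher and 0 were called lower with all livers, against 2.44% of all genes called higher and 2.47% called lower. Without Old replicate 14 the same gene was called, against 3.67% and 3.35%. Unscaled TPM gave 341 genes higher and 188 lower in Old livers, against 339 and 343 after scaling, and Serpind1 was called in both. The median log2 fold change of the 17 was 0.06 with 10 above 0, and 0.10 with 14 above 0 without Old replicate 14.

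The contact system starts clotting on charged surfaces and yields bradykinin from kininogen. F12, factor XII, averaged 422 ± 58.6 scaled TPM in Old and 450 ± 37.0 in Young livers. Klkb1, plasma prekallikrein, averaged 212 ± 43.3 in Old and 219 ± 22.9 in Young livers. F11 ran from 23.4 through 36.5 to 101 in Old and from 27.9 through 33.8 to 44.0 in Young livers, and its top liver was Old replicate 14. Its log2 fold change was 0.22 with all livers and 0.04 without that liver. Kng1, kininogen, ran from 1580 through 2189 to 4507 in Old and from 1505 through 1799 to 2592 in Young livers, again with Old replicate 14 on top, and its log2 fold change was 0.29 (-0.08 to 0.66), and 0.13 (-0.09 to 0.36) without it. Kng2, a close copy of Kng1, averaged 302 ± 97.0 in Old and 229 ± 45.3 in Young livers, and reads of the pair may be split uncertainly.

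The vitamin K dependent procoagulants F2, F7, F9 and F10 encode prothrombin and factors VII, IX and X. F2 ran from 1114 through 1665 to 1992 scaled TPM in Old and from 1359 through 1490 to 1853 in Young livers. F7 averaged 61.7 ± 9.95 in Old and 57.2 ± 7.59 in Young livers, F9 187 ± 34.9 in Old and 174 ± 22.8 in Young livers, and F10 316 ± 55.1 in Old and 305 ± 46.0 in Young livers. The intervals of these 4 genes lay between -0.19 and 0.24 on the log2 scale with all livers. F5, the cofactor of factor Xa, averaged 483 ± 56.6 in Old and 449 ± 84.4 in Young livers, and F13b, the carrier chain of the fibrin crosslinking enzyme, 197 ± 24.9 in Old and 188 ± 11.7 in Young livers.

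Among the anticoagulants, Serpind1 inhibits thrombin and ran from 535 through 574 to 822 scaled TPM in Old and from 377 through 481 to 576 in Young livers. All 10 Old livers lay above the Young median and 5 of them above the highest Young liver, so the groups overlapped in part. It averaged 621 ± 100.5 in Old and 482 ± 70.5 in Young livers, with a log2 fold change of 0.34 ± 0.09 (SE) and a limma adjusted p of 0.0469. Without Old replicate 14, the liver with the highest Serpind1, these were 0.26 ± 0.07 and 0.0265. The call was lost with limma-voom on recovered reads (adjusted p = 0.0511) and in 14 of the 18 fits that leave out 1 liver, in which the fold change stayed between 0.26 and 0.36. By kit, Serpind1 averaged 648 ± 68.7 in Old and 552 ± 31.9 in Young AllPrep livers, and 594 ± 127 in Old and 440 ± 48.5 in Young RNeasy livers, with limma adjusted p of 0.336 and 0.397.

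The other anticoagulants were not called. Serpinc1, antithrombin, averaged 2210 ± 333 scaled TPM in Old and 2182 ± 276 in Young livers, with a log2 fold change of -0.03 (-0.21 to 0.16). Proc, protein C, averaged 334 ± 35.7 in Old and 338 ± 32.8 in Young livers, and Pros1, its cofactor protein S, 68.9 ± 15.7 in Old and 70.7 ± 16.1 in Young livers. Proz, protein Z, which assists inhibition of factor Xa, averaged 189 ± 29.2 in Old and 169 ± 23.6 in Young livers, with 9 of 10 Old livers above the Young median and a limma adjusted p of 0.399.

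Fibrinolysis was represented by Plg and by Serpinf2, the plasmin inhibitor alpha-2-antiplasmin. Plg ran from 2305 through 2981 to 4031 scaled TPM in Old and from 2156 through 2430 to 3804 in Young livers, with a log2 fold change of 0.13 (-0.10 to 0.37). Serpinf2 ran from 602 through 822 to 1236 in Old and from 546 through 644 to 984 in Young livers, and its log2 fold change was 0.29 (-0.01 to 0.60), with a limma adjusted p of 0.229.

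The spread between livers of the same age ranked higher for complement than for coagulation genes, as a description without a test. After age and kit were fitted, the remaining SD of a complement gene had a median percentile of 82.7 among all genes tested, against 41.0 for a coagulation gene, and 63.6 against 32.9 without Old replicate 14. Without that liver 7 of 15 complement genes were above the 80th percentile, namely C3, C4b, Hc, C6, C8a, C8b and C9, and 1 of 17 coagulation genes, Pros1. The steadiest without it were F13b and Serpinc1, at percentiles 6.33 and 6.86.

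**Figure D4:**
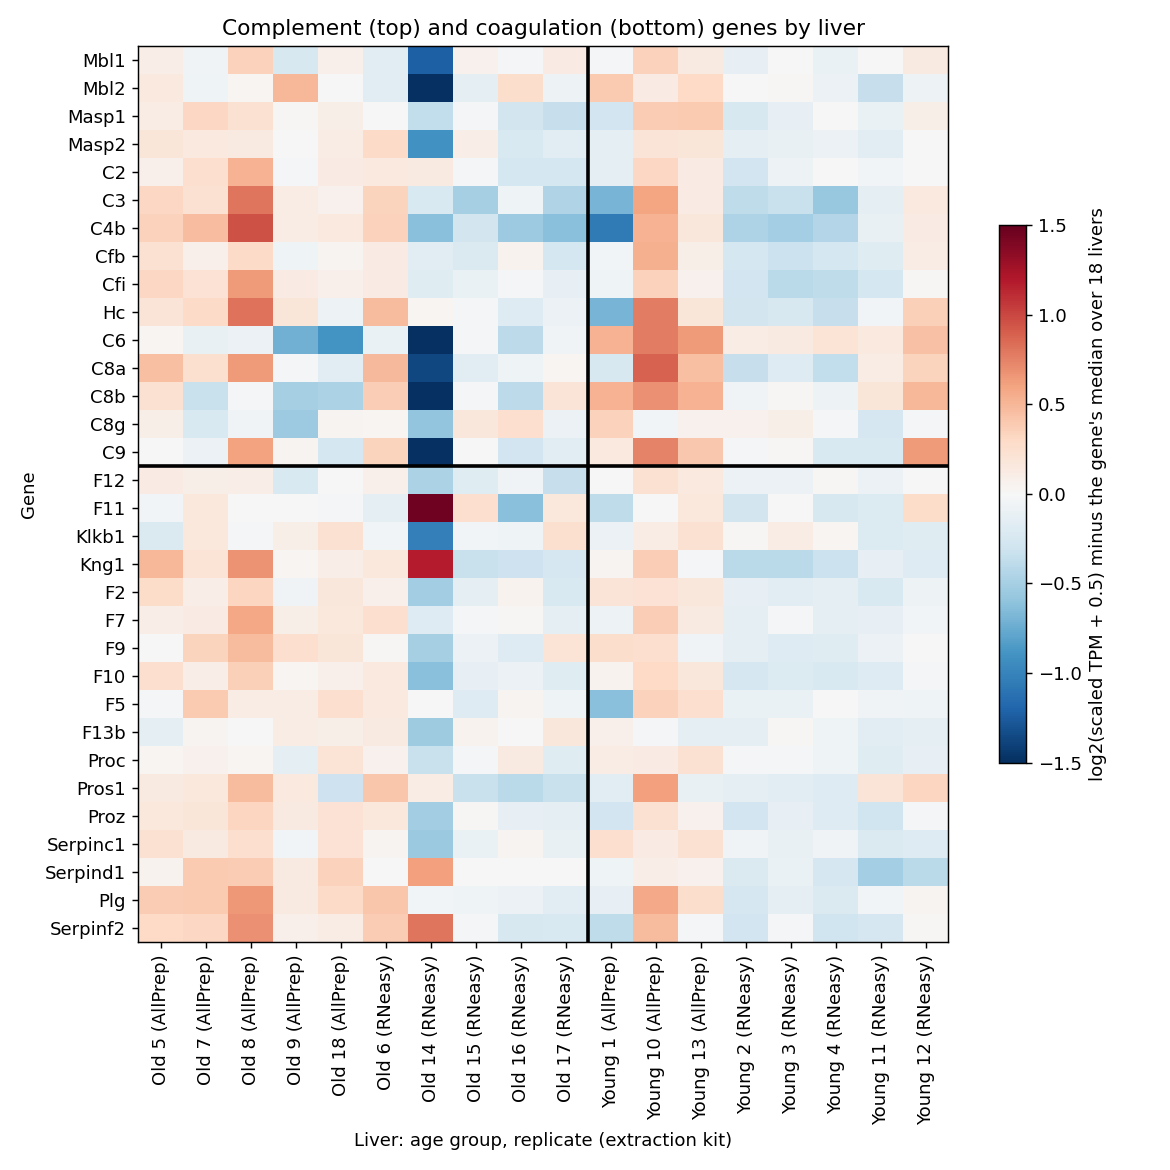
Each row is a gene, complement above and coagulation below the horizontal line, and each column a liver, Old left and Young right of the vertical line, grouped by kit; colour is log2(scaled TPM + 0.5) minus the gene's median over all 18 livers, with red above and blue below, cut at ±1.5. Old replicate 14 is dark blue in C6, C8a, C8b, C9 and Mbl2 and dark red in F11 and Kng1, while Old replicate 8 and Young replicate 10 are red in most rows.

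Some single livers were the highest or lowest of their age for many members. How much of the spread was shared across genes was not measured. Within the Old livers, replicate 8 was the highest for 9 of 15 complement and 8 of 17 coagulation genes, against 10.3% of all genes. Within the Young livers, replicate 10 was the highest for 12 of 15 and 11 of 17, against 12.5% of all genes. Old replicate 14 was the lowest Old liver for 10 of 15 complement and 10 of 17 coagulation genes, against 29.5% of all genes. It was the highest for 0 and 4, against 22.1% of all genes. The 4 were F11, Kng1, Serpind1 and Serpinf2, so this liver was not low throughout. Its summed hepatocyte markers, at 168220 scaled TPM, were the highest of all livers, as were its summed sinusoidal endothelial markers at 286 and cholangiocyte markers at 87.9.

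Of other complement genes from the liver and its immune cells, 0 of 24 tested were called, against 4.91% of all genes. Of these, 16 had log2 fold changes above 0, with a median of 0.09. The 3 most abundant were Vtn, Clu and Serping1, inhibitors of the terminal pore or of C1. Vtn averaged 3162 ± 823 scaled TPM in Old and 3042 ± 729 in Young livers, Clu 1616 ± 445 in Old and 1602 ± 408 in Young, and Serping1 1170 ± 390 in Old and 1110 ± 277 in Young. Of other coagulation genes, 2 of 26 tested rose and 1 fell, against 2.44% of all genes called higher and 2.47% called lower. Plau, the urokinase activator of plasminogen, averaged 2.70 ± 0.87 in Old and 1.45 ± 0.32 in Young livers (log2 fold change 0.68, limma adjusted p = 0.0148), and its receptor Plaur 1.15 ± 0.701 in Old and 0.526 ± 0.147 in Young livers (0.63, adjusted p = 0.0468). Vkorc1l1, a vitamin K reductase, fell to 2.40 ± 0.33 in Old livers, against 3.03 ± 0.23 in Young livers (log2 fold change -0.28, limma adjusted p = 0.0322). These 3 lie at low levels and were also called without Old replicate 14. In AllPrep livers alone only Plau was called, against 1.13% of all genes. In RNeasy livers alone 0 of the 26 were called, against 0.0864% of all genes. Thbd, thrombomodulin, was called lower only without Old replicate 14 (log2 fold change -0.32, limma adjusted p = 0.0407). By the mean over all 18 livers, the most abundant of these genes were the fibrinogen chains Fgb and Fga and the protease inhibitor Pzp, with no call. Fgb averaged 6952 ± 2600 in Old and 6079 ± 2461 in Young livers, Pzp 5027 ± 1410 in Old and 4076 ± 1147 in Young, and Fga 4331 ± 1463 in Old and 3836 ± 1574 in Young.

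Acute phase genes, which the liver induces in inflammation together with several complement genes, had 0 of 15 calls, against 4.91% of all genes. With all livers 15 of 15 log2 fold changes were above 0, some of them barely (Saa1, Lbp, Orm1 and Hp at 0.02 or less, named after their values were seen), with a median of 0.24. Leaving out Old replicate 14 gave 14 of 15 above 0 with a median of 0.31, and in RNeasy livers alone 10 of 15 with a median of 0.08. Of the most abundant, Hpx averaged 7459 ± 4273 scaled TPM in Old and 6850 ± 4294 in Young livers, Hp 6589 ± 3425 in Old and 6707 ± 4726 in Young, and Itih4 3043 ± 1647 in Old and 2389 ± 1821 in Young. Markers of other liver cells gave 0 calls in each list with all livers, against the same 4.91%. Of 10 Kupffer cell and macrophage markers 8 had log2 fold changes above 0, with a summed level of 344 to 1069 in Old and 336 to 703 in Young livers. Of 10 stellate markers 9 did, and 7 without Old replicate 14, with sums of 315 to 535 in Old and 268 to 471 in Young livers. Of 10 sinusoidal endothelial markers 4 did, with sums of 188 to 286 in Old and 185 to 285 in Young livers. The endothelial markers differed by kit: 2 of 10 were above 0 in AllPrep livers alone, with a median log2 fold change of -0.22 and Kdr called lower in Old, and 8 of 10 were above 0 in RNeasy livers alone, with a median of 0.12. Of 4 cholangiocyte markers tested 1 had a log2 fold change above 0, with sums of 23.9 to 87.9 in Old and 26.4 to 65.4 in Young livers. With all livers, 5 of 5 platelet markers tested and 4 of 4 neutrophil markers tested had log2 fold changes above 0. For platelet markers this was 4 of 5 without Old replicate 14 and 2 of 5 in RNeasy livers alone, and for neutrophil markers 4 of 4 in both, but 3 of 4 in RNeasy livers without Old replicate 14. The neutrophil marker Mpo was at 0 in some livers. The platelet markers summed to 6.74 to 46.2 in Old and 8.77 to 15.6 in Young livers, and the neutrophil markers to 8.67 to 86.3 in Old and 4.61 to 31.2 in Young livers. The part of these cells in the results was not tested.

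The age difference of the members was also set against the kit and against 2 traits in the labels. The age by kit interaction was called for 0 of 32 members, and for 0% of all genes with all livers and 0.0216% without Old replicate 14, although C6 and C8b had unadjusted p of 0.0165 and 0.0117 without that liver, both with a larger drop in AllPrep livers. At an unadjusted p under 0.05, these 2 of 32 members and 8.59% of all genes passed without that liver, and 0 members and 4.22% of all genes (587) with all livers. Within an age, the slope on the percent suppression of glucose production by insulin, which ran from 25.4% to 68.4% in Old and from 68.4% to 92.0% in Young mice, was called for 0 of 32 members and 0 of all genes in limma, with 1 member, F9, and 1267 of all genes (9.12%) at an unadjusted p under 0.05. The slope on weight at the clamp was called for 0 of 32 members, against 0.072% of all genes with all livers and 1.2% without Old replicate 14. At an unadjusted limma p under 0.05, 1 member (Masp1) and 15.9% of all genes passed with all livers. Without Old replicate 14 these were 2 members (Masp1 and C8b) and 22% of all genes.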

How the data were processed

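The authors deposited TPM values of 18946 genes for 18 livers, with a total of 1000000 in each. STAR 2.7.9a, Subread and featureCounts, and the builds GRCm39 and mm10, are named per the submitters' processing notes, with no role for each. For gene lengths, annotation and strand setting, the choice is not given in the sources used. Groups came from the labels.

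Whole reads were recovered from the ratios between libraries for 18946 of 18946 genes (tolerance 0.01, largest distance 2.4e-08), and simulated tables of 1500 genes returned 100%. TPM was then divided by trimmed-mean (TMM) factors, trimming 30% of ratios and 5% of levels, with factors of 0.876 to 1.08. A gene was tested if 8 or more livers had 0.5 TPM or more. R 4.3.3 with limma 3.58.1 was used on log2(scaled TPM + 0.5), with a variance trend and age and kit as terms; a fold change on that scale understates changes of low genes. The test was checked on simulated data. Plots and summaries used Python 3.11.15, numpy 2.4.6, pandas 2.3.3 and matplotlib 3.10.9. Alternatives covered scaling, kit, filter, pseudocount, library weights, limma-voom and each library left out.

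The 32 members and the gene lists were chosen with earlier results of these data known. Of lists other than the members and cell markers, called genes and the 3 most abundant are named. Intervals are at 95%.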

Additional observations from a re-analysis of the deposited data

Results flagged for a closer look

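In the 64 combinations of gene and age, 13 had 1 liver set apart from the rest of its group by a gap test. The test takes the gap to the nearest liver over the whole range. Its cutoffs flag about 1 in 20 independent groups of normally distributed values. The members share the same livers and were tested on scaled TPM without logs, so that rate is no benchmark for them. The share of flags over all genes was not computed. Of the 13 flags, Old replicate 14 accounted for 8. It was low in Mbl1 (53.6 scaled TPM, next lowest 107), Mbl2 (106, next 457), Masp2 (42.1, next 67.9), C9 (85.8, next 381), Klkb1 (107, next 187), F13b (135.5, next 178) and Serpinc1 (1470, next 2016). It was high in F11 (101, next highest 43.2). Old replicate 8 was high in C3 (11698, next 8396), Cfi (1267, next 1008) and F7 (85.5, next 68.0). Young replicate 10 was high in Cfb (1744, next 1298) and Serpinf2 (984, next 719).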

How the results depend on the processing

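Without the composition factor 341 genes were higher and 188 lower in Old livers, against 339 and 343 as reported. AllPrep livers alone gave 100 and 57 genes, RNeasy livers alone 6 and 6, RNeasy livers without Old replicate 14 (chosen after seeing the data) 33 and 29, and library weights 704 and 697. Leaving out 1 liver at a time gave 176 to 510 genes higher and 184 to 466 lower, 0 to 1 complement genes lower and 0 to 1 coagulation genes higher. The complement count was 1 (C6) with library weights and without Old replicate 6, 14 or 17. The coagulation count was 0 (Serpind1 lost) with median-of-ratios scaling, no kit term, no filter, either kit alone, limma-voom, RNeasy livers without Old replicate 14, and in 14 of 18 fits without 1 liver. Over all 28 alternatives the log2 fold change of C6 stayed between -1.01 and -0.36 (limma adjusted p 0.0127 to 0.586) and that of Serpind1 between 0.22 and 0.42 (0.0196 to 0.397). Without Old replicate 14, 3 genes were called for the interaction of age and kit and 167 for clamp weight, against 0 and 10, with 0 members in each. Small uncalled log2 fold changes turned sign. Without the composition factor these were Masp2 0.025, F2 0.039, F10 0.057, Proc 0.017 and Serpinc1 0.032. With median-of-ratios scaling F10 was 0.00064, and with limma-voom 0.0022. Without a kit term F2 was 0.022, F10 0.043 and Serpinc1 0.012. In AllPrep livers Masp2 was 0.024 and Cfb -0.089, and in RNeasy livers C4b was -0.062, F10 0.015 and Proc 0.019. With library weights Masp2 was 0.060, C8g 0.0045, F2 0.028, F10 0.043, Proc 0.00793 and Serpinc1 0.030. In RNeasy livers without Old replicate 14 Mbl1 was 0.012, Mbl2 0.062, Masp2 0.092, C2 -0.024, C4b -0.0032, C8a 0.16, C8g 0.11, F11 -0.0091, Klkb1 0.063, F2 0.075, F10 0.12, Proc 0.074 and Serpinc1 0.084. Leaving out 1 liver, C4b ran from -0.021 to 0.27, Cfb from -0.015 to 0.093, F5 from -0.013 to 0.16, F10 from -0.045 to 0.061, F2 from -0.050 to 0.030, Pros1 from -0.13 to 0.021, Masp2 from -0.092 to 0.069, C8a from -0.24 to 0.027, Klkb1 from -0.14 to 0.023 and Serpinc1 from -0.052 to 0.031. The cause was not tested. No paired analysis was possible because no replicate number occurs in both ages. Depth did not limit the members, but their number of livers per kit limits the precision within a kit.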
